A study of Mus musculus with 3 samples.

Results

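The miRNAs described here are miR-9, miR-124, miR-128 and miR-153, 4 families known from neurons that were sequenced in MIN6, a mouse insulinoma cell line used as a model of the insulin-secreting beta cell. They are encoded by 9 hairpins, namely Mir9-1, Mir9-2, Mir9-3, Mir124a-1, Mir124a-2, Mir124a-3, Mir128-1, Mir128-2 and Mir153. The hairpins were chosen by name and not by a rule on their values, but earlier results of these data were known. The same held for the lists of other miRNAs given below. Reads of the hairpins were found by matching each hairpin sequence to the positions and mismatches of the deposited alignments. All 9 were placed, among 204 hairpins that had a single position in these alignments out of 2238 hairpin sequences searched. The study sequenced small RNA from 3 libraries of MIN6 cells, described as biological replicates, all grown with 25 mM glucose. There is therefore 1 group and no contrast between conditions, and the spread between libraries is given as SD. The cells are a tumour-derived line cultured without neurons or other islet cells.

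The expected counts of the libraries summed to 9269795, 10816006 and 10218743 mapped reads in replicates 1, 2 and 3, with read lengths of 14 to 41 nt. Levels are given as RPM, that is, reads scaled to 1000000 mapped reads of the library. In the smallest library 3 reads, the limit that a count of 0 allows, correspond to 0.324 RPM. Markers of other cell types were looked for among the placed hairpins. All 5 hairpins on the list of islet and beta cell miRNAs were placed, and their summed level was 366654 ± 19068 RPM (SD, n = 3), nearly all of it from miR-375-3p, a miRNA enriched in beta cells. None of the 5 blood cell hairpins, the 2 skeletal muscle hairpins and the 5 fibroblast and smooth muscle hairpins was placed. Of all hairpin sequences searched, 204 of 2238 were placed, so most of any list would be missing. A hairpin that was not placed may still have had reads, so these markers are not shown to be absent.

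A miRNA is cut from one arm of a hairpin by the enzymes Drosha and Dicer, and the arm left of the loop is called 5p and the arm right of it 3p. Bases 2 to 8 of the mature miRNA form its seed, which pairs with target mRNAs, so that a shift of the 5′-start gives another seed. miR-9 and miR-124 are abundant in the nervous system, where miR-124 marks differentiated neurons, and miR-128 and miR-153 are also known as brain miRNAs. Beta cells share several features with neurons, such as regulated exocytosis and the lack of the repressor REST.

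The mature sequences of the miR-9, miR-128 and miR-153 arms are shown 5′ to 3′ because the 5′-starts and 3′-ends described below are counted on them. They were taken from RefSeq (GRCm38.p6), and capitals mark the seed.
miR-9-5p: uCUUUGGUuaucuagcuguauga
miR-9-3p: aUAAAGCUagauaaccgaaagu
miR-128-3p: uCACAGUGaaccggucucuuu
miR-128-1-5p: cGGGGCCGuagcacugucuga
miR-128-2-5p: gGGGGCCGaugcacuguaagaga
miR-153-3p: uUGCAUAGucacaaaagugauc
miR-153-5p: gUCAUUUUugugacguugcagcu
The 5p arms of Mir128-1 and Mir128-2 differ in sequence but share the seed GGGGCCG. The other seeds of this set are distinct from each other.

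On mm9, the build named in the submitters' processing notes, Mir9-1 was placed at chr3:88019520-88019608, Mir9-2 at chr13:83878419-83878490 and Mir9-3 at chr7:86650150-86650239, all on the plus strand. The 3 copies of miR-124 were placed on the plus strand, with Mir124a-1 at chr14:65209494-65209578, Mir124a-2 at chr3:17695662-17695770 and Mir124a-3 at chr2:180628745-180628812. Mir128-1 lay at chr1:130098938-130099007 on the plus strand and Mir128-2 at chr9:112021140-112021215 on the minus strand. Mir153 lay at chr12:118489290-118489358 on the plus strand. In the GENCODE annotation of GRCm38, the miR-9 and miR-124 hairpins lie in long non-coding genes, within an intron for Mir9-1 (Gm3764) and Mir9-3 (Mir9-3hg) and overlapping an exon for Mir9-2 (C130071C03Rik), Mir124a-1 (Mir124a-1hg), Mir124a-2 (Mir124-2hg) and Mir124a-3 (Gm27032). The other 3 hairpins lie in introns of protein-coding genes on the same strand. Mir128-1 lies in R3hdm1, Mir128-2 in Arpp21, which encodes a phosphoprotein of dopamine-responsive neurons, and Mir153 in Ptprn2, which encodes a membrane protein of insulin secretory granules and neuronal dense-core vesicles.

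All 4 families were detected in every library, and each was led by a single arm, 3p for miR-124, miR-128 and miR-153 and 5p for miR-9. miR-128-3p was the most abundant, at 838, 750 and 754 RPM in replicates 1, 2 and 3, with a mean of 781 ± 49.98 RPM (SD, n = 3). Of the 371 arms of the placed hairpins it ranked 57 by mean level. Hairpins that were not placed have no rank. Some arms whose copies share reads, such as let-7a-5p, are entered separately for each copy, and arms of Snord43 are included. miR-9-5p was present at 285, 281 and 281 RPM (282 ± 2.15, SD, n = 3) and ranked 98. Relative to its mean, miR-9-5p varied least between libraries among the 9 arms. miR-153-3p was present at 173, 153 and 146 RPM (157 ± 14.4, SD, n = 3) and ranked 132. miR-124-3p was present at 163, 151 and 143 RPM (152 ± 10.0, SD, n = 3) and ranked 133. These last 2 arms could not be ordered, since their library values overlapped, while miR-128-3p stood above miR-9-5p, and miR-9-5p above miR-153-3p, in every pair of libraries.

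The opposite arms were all lower than these. miR-128-1-5p reached 40.7, 41.1 and 38.9 RPM (40.2 ± 1.18, SD, n = 3), and miR-153-5p 28.8, 25.1 and 22.02 RPM (25.3 ± 3.396, SD, n = 3). These 2 arms did not overlap, nor did miR-153-5p and the next arm. miR-124-5p was measured at 9.28, 6.75 and 6.07 RPM (7.36 ± 1.69, SD, n = 3), and miR-9-3p at 6.15, 4.44 and 4.40 RPM (4.997 ± 0.998, SD, n = 3), values that overlapped. miR-128-2-5p was lowest, with 25, 44 and 29 reads or 2.70, 4.07 and 2.84 RPM (3.20 ± 0.754, SD, n = 3), below miR-9-3p in every pair of libraries. In all, 6 of the 8 neighbouring pairs in this order were apart.

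**Figure D1:**
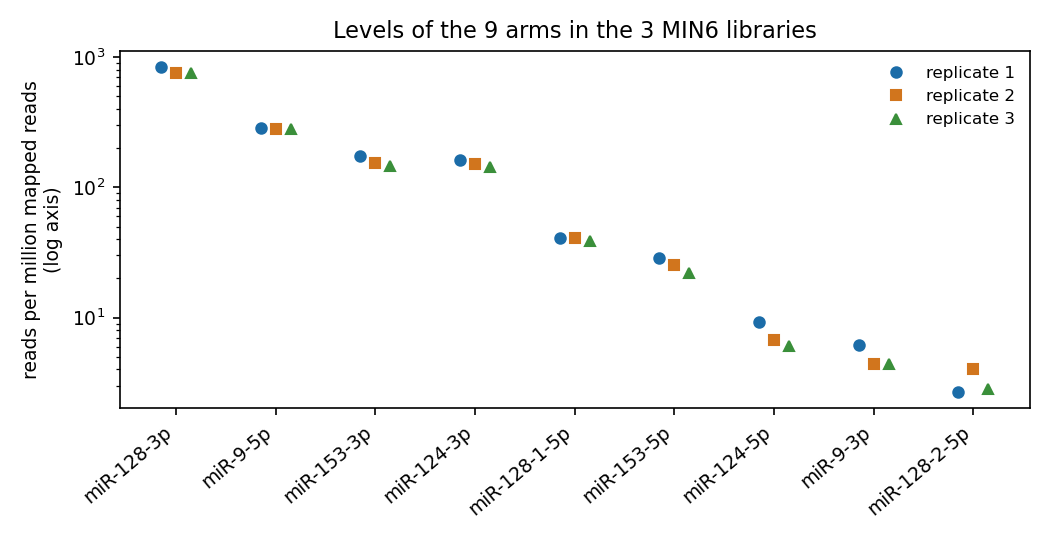
Level of each arm (x axis) in RPM (y axis, log scale), with 1 point per MIN6 library. The 3 points of an arm lie close together compared with the range from 781 RPM for miR-128-3p to 3.20 RPM for miR-128-2-5p, and only miR-153-3p with miR-124-3p and miR-124-5p with miR-9-3p overlap as neighbours.

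Summed over their 9 arms, the 4 families reached 1547, 1416 and 1398 RPM (1454 ± 81.1, SD, n = 3). This was 0.199%, 0.182% and 0.182% of the reads on the arms of all placed hairpins. miR-128 contributed 56.7% of the summed reads pooled over the libraries, miR-9 19.8%, miR-153 12.6% and miR-124 10.98%.

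The arms closest to these miRNAs in level, by mean log10 RPM over the 3 libraries, were miR-138-5p (793 ± 56.7 RPM, SD, n = 3) and miR-103-3p (809 ± 52.2) for miR-128-3p. For miR-9-5p they were miR-532-5p (279 ± 4.61 RPM, SD, n = 3) and miR-181a-1-3p (274 ± 24.5). miR-673-5p (158 ± 21.7 RPM, SD, n = 3) was close to both miR-153-3p and miR-124-3p, with miR-130b-5p (159 ± 11.9) next to the former and miR-384-3p (147 ± 17.7) next to the latter. Among 14 hairpins of other miRNAs known from neurons, 7 were placed, beside 204 of all 2238 hairpin sequences searched. The list was chosen with earlier results of these data known, so its share placed is no result about such miRNAs. The 7 were Mir129-1, Mir129-2, Mir138-1, Mir138-2, Mir132, Mir212 and Mir136, and their arms summed to 3528 ± 252 RPM (SD, n = 3). The highest levels were those of miR-129-5p at 927 ± 69.1 RPM, miR-138-5p as given above and the activity-regulated miR-132-3p at 432 ± 8.87 RPM (SD, n = 3). Mir137, Mir218-1, Mir218-2, Mir219a-1, Mir219a-2, Mir323 and Mir708 were not placed. A hairpin could be placed only where its reads held enough mismatches to tell its sequence, so a hairpin that was not placed may still have had reads.

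The balance between the arms differed between families. The miR-9 hairpins gave 2638, 3034 and 2873 reads from the 5p arm and 57, 48 and 45 from the 3p arm, a ratio of 5p to 3p of 46.3, 63.2 and 63.8 (57.8 ± 9.97, SD, n = 3). Counting only the leading start of each arm, which leaves out the RefSeq start of miR-9-3p, the mean ratio was 92.1. For miR-124 the 3p arm led, with 1508, 1639 and 1458 reads over 86, 73 and 62, a ratio of 3p to 5p of 17.5, 22.4 and 23.5 (21.2 ± 3.19, SD, n = 3). For miR-128 the ratio of 3p to 5p was 19.3, 16.6 and 18.1 (18.01 ± 1.36, SD, n = 3). miR-153 was the most even of the families, with 1607, 1658 and 1487 reads from the 3p arm and 267, 272 and 225 from the 5p arm, a ratio of 6.02, 6.10 and 6.61 (6.24 ± 0.321, SD, n = 3). With leading starts alone, which leaves out the RefSeq start of miR-153-5p, the mean ratio was 9.42. The library values of miR-153 did not overlap with those of any other family.

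Each arm was next examined for 5′-shifted isomiRs, that is, reads that start at another base than the RefSeq start. The most used 5′-start of an arm is called its leading start. The miR-124 arms had no RefSeq entry here, so their starts are given relative to the leading start. In miR-128-3p, 99.8% ± 0.0118 of the reads started at the leading base (SD, n = 3), in miR-9-5p 99.7% ± 0.121 and in miR-153-3p 99.4% ± 0.378. These leading starts were the RefSeq starts. The same was true of miR-128-1-5p, with 99.8% ± 0.143 (SD, n = 3), and of miR-128-2-5p, with 95.4% ± 3.02 over few reads. miR-124-5p had 99.5% ± 0.931 of its reads at the leading start.

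miR-124-3p differed from the other leading arms in having a second abundant start, 1 base upstream of the leading one. The leading start held 1116, 1192 and 1108 reads, or 74.0%, 72.7% and 76.0% of the arm (74.3% ± 1.64, SD, n = 3). The upstream start held 374, 431 and 339 reads, or 24.8%, 26.3% and 23.3% (24.8% ± 1.52, SD, n = 3). The lowest and highest bounds of the 95% Wilson intervals of the libraries were 70.5% and 78.1% for the leading start and 21.2% and 28.5% for the upstream start. Intervals here cover counting error within a library only. The reads carried no molecular identifiers, so copies of 1 molecule may be counted as separate reads, and the intervals may be too narrow. The ratio of the leading to the upstream start was 2.98, 2.77 and 3.27 (3.01 ± 0.252, SD, n = 3). At 40.3, 39.8 and 33.2 RPM, the upstream form alone lay below the whole miR-128-1-5p arm in each library. On Mir124a-1 the leading start lies at base 53 of the hairpin, chr14:65209546, and the upstream start at base 52.

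The reads of these starts cannot be assigned to a copy. All 3 miR-124 hairpins carry the same arm sequences, and the authors divided each read among them, so that each copy received between 33.3% and 33.5% of miR-124-3p. Only 5 reads of the arm over the 3 libraries lay on 1 copy alone, all on Mir124a-1.

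In miR-153-5p the leading start was 1 base downstream of the RefSeq start. It held 202, 171 and 138 reads, or 75.7%, 62.9% and 61.3% of the arm (66.6% ± 7.86, SD, n = 3), against 65, 100 and 86 reads at the RefSeq start. The ratio of the shifted to the RefSeq start was 3.11, 1.71 and 1.60 (2.14 ± 0.839, SD, n = 3), so the shifted form led in every library, and replicate 1 stood apart from the other two. The 95% Wilson interval of the shifted share in replicate 1 was 70.2% to 80.4%, above the intervals of 57.0% to 68.4% and 54.8% to 67.5% in replicates 2 and 3. miR-9-3p had the same order of starts, with 36, 30 and 28 reads at the start 1 base downstream and 21, 18 and 16 at the RefSeq start, a ratio of 1.71, 1.67 and 1.75 (1.71 ± 0.0418, SD, n = 3). The 95% Wilson intervals of the shifted share of miR-9-3p were wide, from 47.6% to 74.9% in replicate 3, and reached below 50% in replicates 2 and 3.

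Both shifted forms carried another seed. They are shown at their most common length, with the seed in capitals.
miR-153-5p+1: uCAUUUUUgugacguugcagcu
miR-9-3p+1: uAAAGCUAgauaaccgaaagu
The seed of miR-153-5p changed from UCAUUUU to CAUUUUU and that of miR-9-3p from UAAAGCU to AAAGCUA. Neither shifted seed was that of another mouse miRNA in the RefSeq sequences used.

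**Figure D2:**
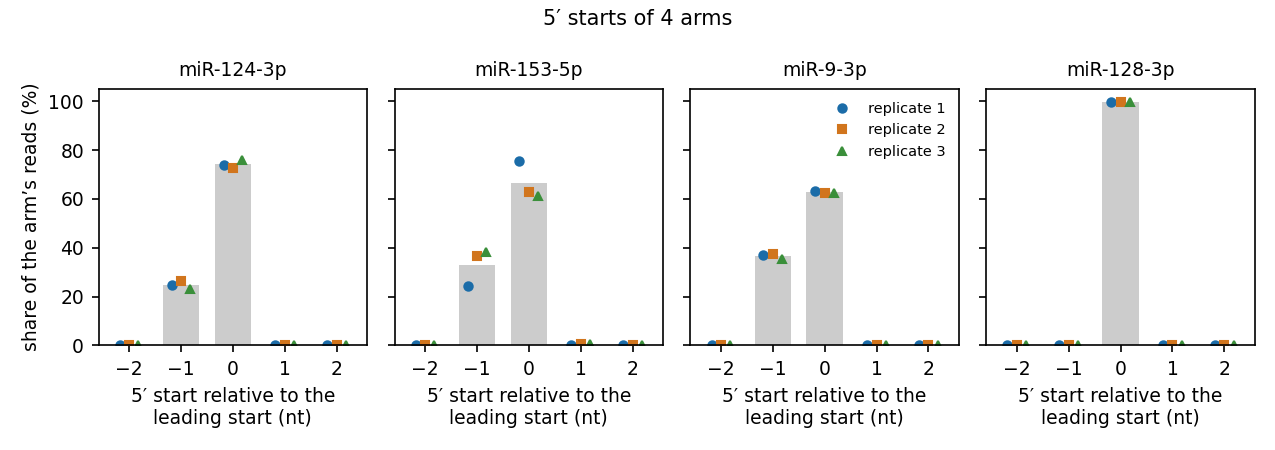
Share of the reads of an arm (y axis, %) by the position of the 5′-start relative to the leading start (x axis, nt, with negative values upstream) in miR-124-3p, miR-153-5p, miR-9-3p and miR-128-3p. Bars are means of the 3 libraries and points are single libraries, and the start 1 base upstream holds 24.8% of miR-124-3p, 33.1% of miR-153-5p and 36.6% of miR-9-3p but almost none of miR-128-3p.

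Set beside the other arms, the starts of miR-124-3p and miR-153-5p were among the less uniform. For the 268 other arms with at least 100 reads in every library, the median share at the leading start was 97.9%, with quartiles of 86.5% and 99.4%. miR-124-3p was above 17.2% of these arms and miR-153-5p above 11.6%, while miR-128-3p was above 86.6%, miR-9-5p above 84.7% and miR-153-3p above 72.4%. In 21 of 217 other arms with a RefSeq start, or 9.68%, the leading start was not the RefSeq start, as in miR-153-5p. These positions among the arms are descriptions, since the arms share libraries and no test was made. The other arms also include the separately entered copies and the Snord43 arms named above.

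**Figure D3:**
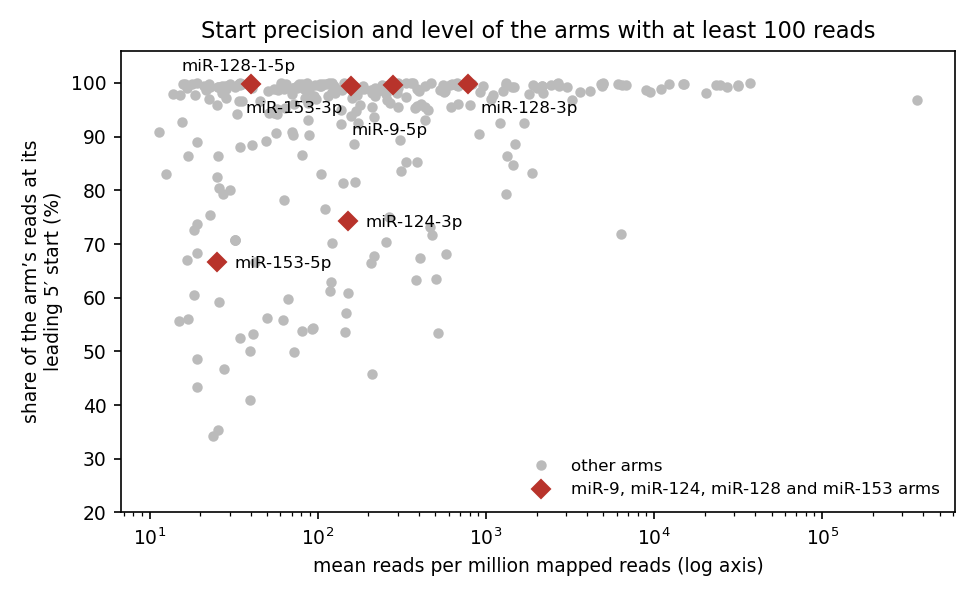
Share of reads at the leading 5′-start (y axis, %) against mean level in RPM (x axis, log scale) for arms with at least 100 reads in every library, with the 6 such arms of the miR-9, miR-124, miR-128 and miR-153 families as red diamonds and the other arms in grey. 4 of the 6 lie above 99%, and miR-124-3p at 74.3% and miR-153-5p at 66.6% lie in the lower part of the cloud.

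The seed of miR-128-3p, CACAGUG, was also reached by a shifted form of another miRNA. miR-27b-3p has the RefSeq seed UCACAGU, and a start 1 base downstream gives the seed of miR-128-3p, as the capitals show.
miR-128-3p: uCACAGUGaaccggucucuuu
miR-27b-3p: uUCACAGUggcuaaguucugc
miR-27b-3p+1: uCACAGUGgcuaaguucugc
The shifted miR-27b-3p was found at 26.3, 22.2 and 22.1 RPM (23.5 ± 2.36, SD, n = 3). miR-128-3p itself supplied 96.9%, 97.0% and 97.1% of the reads with this seed (97.0% ± 0.0961, SD, n = 3). Conversely, the start 1 base upstream in miR-128-3p, which moves its seed to that of miR-27b-3p, held only 10, 11 and 10 reads. For miR-9-5p, miR-153-3p and both starts of miR-153-5p, all reads with their seed at the arms of the placed hairpins came from that start itself. In the shared seed of the miR-128 5p arms, Mir128-1 supplied 92.9% ± 1.60 and Mir128-2 7.07% ± 1.60 (SD, n = 3).

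The 2 copies of miR-128 could be told apart in part, since their 3p arms are identical up to base 21 and differ from base 22 on. The RefSeq hairpins are shown from the leading start, with the bases after the annotated mature miRNA in capitals.
miR-128-3p of Mir128-1: ucacagugaaccggucucuuuUUCAG
miR-128-3p of Mir128-2: ucacagugaaccggucucuuuCCCUA
A read of 22 nt without mismatch thus ends in U if it comes from Mir128-1 and in C if it comes from Mir128-2. There were 637, 626 and 599 such reads on Mir128-1 and 579, 723 and 611 on Mir128-2. The ratio of Mir128-1 to Mir128-2 was 1.10, 0.866 and 0.980 (0.982 ± 0.117, SD, n = 3), so neither copy was higher in every library.

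Other lengths and the other arm gave another picture. At 23 nt, 113, 102 and 79 reads without mismatch ended on the bases of Mir128-1 and 0, 1 and 1 on those of Mir128-2. In the 5p arms, which differ at base 1 and at bases outside the seed, Mir128-1 had 377, 444 and 397 reads and Mir128-2 25, 44 and 29, a ratio of 15.1, 10.1 and 13.7 (13.0 ± 2.57, SD, n = 3). The copies were thus within the spread of each other in the 22 nt reads of the 3p arm and apart in every library in the 5p arm. A 22 nt read ending in U can also be a 21 nt read with an added U, and its share in these counts cannot be told apart from reads of Mir128-1. In the same way, a 23 nt read counted on Mir128-1 can be a 21 nt read of either copy with UU added. As divided by the authors, Mir128-1 held 53.0%, 51.8% and 52.7% of the 3p arm, against 49.4% on average in the exact reads of 22 nt, and 27.2% of its reads lay on 1 copy alone.

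The 3 miR-9 hairpins gave no such information. Each received 33.3% to 33.4% of miR-9-5p, and 4 reads of the arm in all lay on 1 copy alone, 1 on Mir9-2 and 3 on Mir9-3. The reads therefore do not tell which of the 3 copies they came from, and the same held for miR-9-3p.

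Read lengths at the leading start were narrow for some arms and broad for others. miR-153-3p was mostly 22 nt long, at 81.6%, 83.4% and 80.6% of its reads (81.9% ± 1.39, SD, n = 3), with a smaller peak of 7.37% ± 0.156 at 24 nt and 2.56% ± 0.593 at 23 nt. miR-9-5p was mostly 23 nt long, at 78.1%, 78.4% and 78.8% (78.5% ± 0.337, SD, n = 3). The most common length of both arms was that of the RefSeq mature miRNA.

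miR-128-3p was spread over 19 to 23 nt. Reads of 21 nt, the RefSeq length, made up 43.3%, 42.3% and 41.4% (42.3% ± 0.926, SD, n = 3), reads of 22 nt 22.5% ± 0.874 and reads of 20 nt 17.95% ± 1.57. miR-124-3p was most often 20 nt long at the leading start, with 49.9%, 47.7% and 49.9% (49.2% ± 1.26, SD, n = 3), and 21 nt long at the upstream start, with 39.6%, 37.4% and 39.8% (38.9% ± 1.36, SD, n = 3). These 2 forms end at the same base. The upstream start also had reads of 18 nt, at 12.9% ± 2.35, against 2.56% ± 0.551 at the leading start (SD, n = 3).

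**Figure D4:**
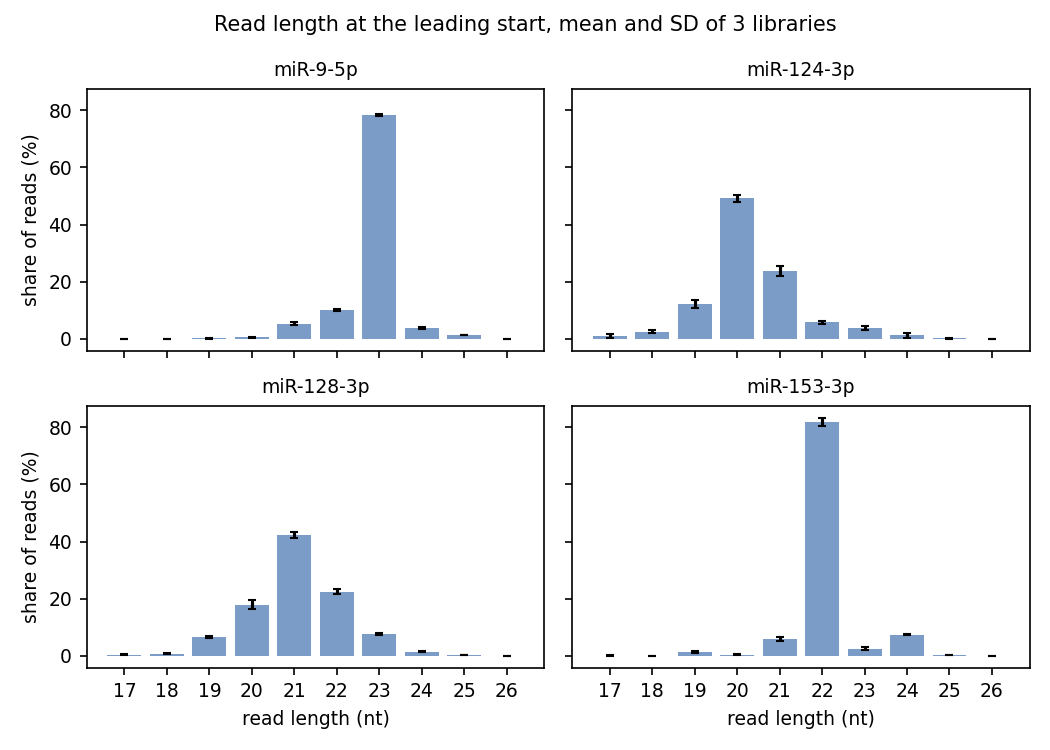
Read length (x axis, nt) against the share of reads at the leading start (y axis, %) for the most abundant arm of each family, as the mean of 3 libraries with SD as error bars. miR-9-5p has 78.5% of its reads at 23 nt and miR-153-3p 81.9% at 22 nt, while miR-128-3p and miR-124-3p spread over several lengths with maxima of 42.3% at 21 nt and 49.2% at 20 nt.

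The shifted and RefSeq forms of miR-153-5p also shared their 3′-end. Of the reads at the downstream start, 86.8% ± 3.37 were 22 nt long, and of those at the RefSeq start 88.5% ± 3.02 were 23 nt long (SD, n = 3). miR-128-1-5p had 2 separate lengths, with 42.8% ± 3.18 of its reads at 21 nt, 42.4% ± 2.81 at 23 nt and only 5.13% ± 1.52 at 22 nt (SD, n = 3). Its RefSeq length is 21 nt. miR-128-2-5p was 23 nt long in 72.4% ± 5.47 of its reads and miR-124-5p 22 nt long in 72.9% ± 7.81 (SD, n = 3).

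The 3′-ends were then examined for bases that do not match the genome. Terminal nucleotidyltransferases are known to add U or A to finished miRNAs. miR-124-3p had the highest share of reads with a mismatching last base among the 4 leading arms, at 16.5%, 16.1% and 17.6% of the reads at its leading start (16.7% ± 0.775, SD, n = 3). For miR-9-5p the share was 12.7%, 11.8% and 11.4% (12.0% ± 0.683, SD, n = 3). miR-128-3p followed with 6.84%, 6.67% and 6.71% (6.74% ± 0.0893, SD, n = 3) and miR-153-3p with 1.51%, 1.57% and 1.49% (1.52% ± 0.0432, SD, n = 3). The library values of these 4 arms did not overlap. Added bases that match the genome are not counted, so the measure is not alike in all arms. With mismatches anywhere in the last 3 bases, the means were 17.5% in miR-124-3p, 13.98% in miR-9-5p, 11.6% in miR-128-3p and 8.75% in miR-153-3p. Among the 268 other arms the median share was 8.65%, with quartiles of 3.24% and 21.96%, so that none of the 4 lay above the upper quartile and only miR-153-3p lay below the lower.

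The mismatching base itself differed between arms. An added base that matches the genome is not counted. Which base matches differs between arms, so added U and added A cannot be compared between them. In miR-124-3p it was U in 160, 155 and 174 reads, or 14.3% ± 1.35 of the reads at the leading start (SD, n = 3), and U made up 85.6% of its mismatching ends. The most frequent such read was 21 nt long, with 77, 81 and 97 reads. In miR-9-5p a mismatching U ended 10.2%, 9.20% and 9.11% of the reads (9.50% ± 0.593, SD, n = 3), or 79.3% of its mismatching ends. The main form was a 23 nt read with U in the place of the templated A at its end, with 155, 153 and 147 reads. The matching 23 nt read had 1466, 1687 and 1635, and an A added at this place would be counted there.

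In miR-128-3p the most frequent mismatching last base was A. After its 21 annotated bases, an added U matches Mir128-1 and an added C matches Mir128-2. Such additions do not count as mismatches, so added U or C cannot be compared with added A in this arm. Mismatching A ended 4.11%, 4.17% and 4.09% of its reads (4.12% ± 0.0388, SD, n = 3), which was 61.2% of its mismatching ends, against 18.6% for U and 14.4% for G. A single A after the annotated 21 bases was found in 90, 88 and 71 reads of 22 nt. Another 173, 173 and 189 reads of 23 nt had this A followed by a base that matches the genome, and 36, 49 and 42 had A at both positions. In the second of these forms the last base does not count as a mismatch, and with mismatches anywhere in the last 3 bases the share of miR-128-3p was 11.6% ± 0.155 (SD, n = 3). Of the 535 reads of that form, 468 were placed on Mir128-1, where the matching base is U, and 67 on Mir128-2, where it is C.

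**Figure D5:**
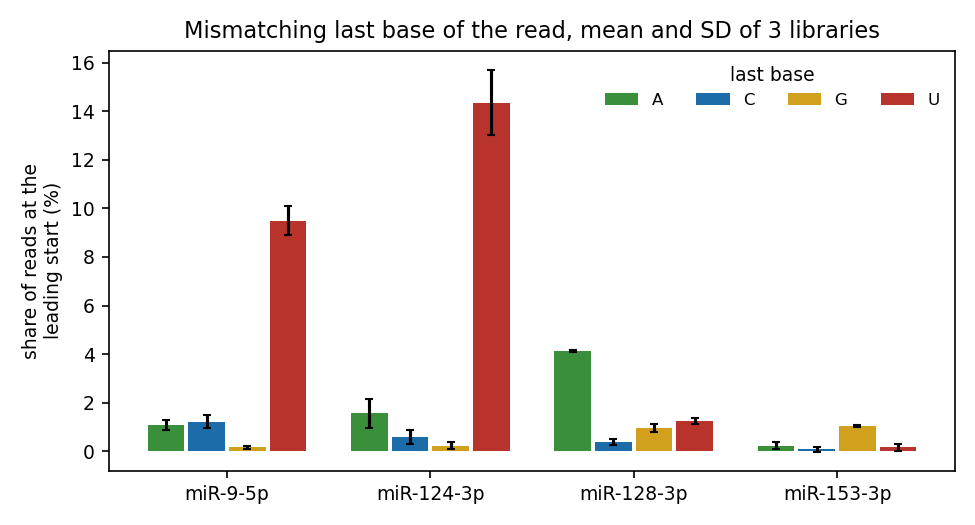
Share of the reads at the leading start (y axis, %) whose last base mismatches the genome, by that base (A, C, G or U), for the most abundant arm of each family (x axis), as the mean of 3 libraries with SD as error bars. U is highest in miR-124-3p (14.3%) and miR-9-5p (9.50%), A in miR-128-3p (4.12%), and miR-153-3p has little of any base. Added bases that match the genome are not counted, such as U or C after the annotated end of miR-128-3p.

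miR-153-3p had few mismatching ends, 24, 26 and 22 reads, and 68.1% of them were G. Mismatches in its last 3 bases were found in 8.75% ± 0.637 of the reads (SD, n = 3). In miR-153-5p the share with a mismatching last base varied from 4.68% in replicate 2 to 13.8% in replicate 3, with 20, 8 and 19 reads, of which 93.6% ended in U. In miR-9-3p, miR-124-5p and miR-128-2-5p no library had more than 5 such reads.

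Mismatches within the reads were dominated by the same kind of substitution. The share of leading-start reads without any mismatch was 71.4% ± 1.29 in miR-128-3p, 69.0% ± 0.729 in miR-9-5p, 80.3% ± 0.739 in miR-153-3p and 79.9% ± 0.544 in miR-124-3p (SD, n = 3). Outside the last 3 bases, A read as C made up 91.2% of the mismatches in miR-128-3p, 94.3% in miR-9-5p and 86.4% in miR-153-3p, and 52.3% of the 107 mismatches in miR-124-3p. In the other arms with at least 100 reads it made up 79.96%. This kind of substitution was therefore not particular to these families.

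Positions below are counted from 1 at the 5′-end of the leading start, with the genomic base before and the read's base after the position. In miR-128-3p, A10C was found in 16.4%, 14.3% and 14.7% of the reads that cover the position (15.1% ± 1.12, SD, n = 3) and A9C in 2.48% ± 0.106. miR-9-5p had A10C in 12.1% ± 0.341 and A20C in 7.70% ± 0.166 of the reads (SD, n = 3). miR-153-3p had A11C in 7.92% ± 0.576, miR-153-5p A12C in 20.7% ± 3.41 and miR-128-1-5p A10C in 15.5% ± 0.923 (SD, n = 3). In miR-124-3p no substitution reached both 1% of the reads and 10 reads in every library. The positions lie outside the seed in each of these arms. Whether they arose in the cells or in sequencing was not tested.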

How the data were processed

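Total RNA of 3 MIN6 libraries was sequenced with the Illumina TruSeq small RNA kit. Per the submitters' processing notes, cutadapt, Bowtie and mm9 were used; the methods add SHRiMP2 for reads with mismatches, sought only in windows around exact matches. The authors deposited expected counts for each distinct alignment and mismatch pattern, and reads that mapped as well to other loci were shared out between them. These counts are not normalized and replicates were not pooled.

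Hairpin sequences (RefSeq, then GENCODE) were placed where no base contradicted the recorded mismatches, with at least 15 reads and 20 bits of sequence information. Alignments without mismatch end 1 base early in the files, which was corrected. The placement was run on simulated data whose mismatches were spread evenly over positions and bases. In the real reads A read as C dominates, so that run does not show how well placement works here. Arms include starts within 5 nt of the RefSeq start or, without an entry, of the most covered start with at least 30 reads. RPM are relative to all mapped reads. A start was named if it held at least 1% of its arm and 10 reads in every library. The closest arms are the 2 nearest in mean log10 RPM, for arms over 100 RPM.

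Python 3.11.15, numpy 2.4.6, pandas 2.3.3, scipy 1.17.1 and matplotlib 3.10.9 were used. No test was made, because there is 1 group. The members and lists were chosen with earlier results of these data known. Alternatives were other denominators, exact reads, 20 to 24 nt reads, leading starts, mismatches in the last 3 bases, a minimum of 1000 reads, single-copy reads and leaving out each replicate; the split of the miR-128 copies by exact 22 nt reads was chosen after seeing the data. The depth of 9269795 to 10816006 mapped reads limits shares in the arms with few reads.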

Additional observations from a re-analysis of the deposited data

Results flagged for a closer look

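Outside the arms, reads that began in a miR-124 hairpin or lay opposite to one were used in no comparison above. They exceeded the limit that a count of 0 allows. On Mir124a-1, reads in sense from base 75 of the hairpin (chr14:65209568) numbered 6, 7 and 5 in the 3 libraries, a mean of 6 reads, most often 36 nt long. The hairpin is 85 nt long, so most of such a read lies past its end. On the strand opposite to Mir124a-3, the deposited values summed to 7, 3.33 and 7.33 reads, a mean of 5.89, most often 22 nt long.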

How the results depend on the processing

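Without each replicate in turn, miR-128-3p ranged from 752 to 796 RPM, miR-124-3p from 147 to 157 RPM and the shifted share of miR-153-5p from 62.1% to 69.3%. No paired analysis was possible because the libraries form 1 group. The order of the arms was the same with exact reads and with leading starts only, where 7 neighbouring pairs were apart. With reads mapped without mismatch as denominator, miR-128-3p, miR-9-5p, miR-153-3p and miR-124-3p came to 1091, 394, 220 and 213 RPM, and with mapped reads of 16 to 27 nt to 889, 321, 179 and 173 RPM. With exact alignments only they fell to 557, 195, 126 and 120 RPM, and the main values count the reads with substitutions given above. With reads of 20 to 24 nt, miR-128-3p, miR-9-5p and miR-124-3p came to 716, 277 and 125 RPM, and the leading start alone of miR-124-3p to 113 RPM. The leading-start share of miR-128-3p remained 99.8% with exact reads and with 20 to 24 nt, and that of miR-124-3p was 76.0% with 20 to 24 nt. With leading starts only, the ratio of 5p to 3p of miR-9 was 92.1 and the ratios of 3p to 5p of miR-124 and miR-153 were 15.8 and 9.42, since minor starts are then left out; with exact reads those of miR-128 and miR-153 were 16.1 and 6.74. The 22 nt share of miR-9-5p was 11.4% with exact reads. Mismatches in the last 3 bases were found in 11.6% of miR-128-3p, 13.98% of miR-9-5p, 8.75% of miR-153-3p and 17.5% of miR-124-3p, and mismatching last bases at 20 to 24 nt in 1.40% of miR-153-3p and 17.8% of miR-124-3p. The share of miR-128-3p on Mir128-1 was 52.5% as divided, 59.2% with reads on 1 copy only and 49.4% with exact reads of 22 nt, so that the higher copy changed with this choice. Among arms with at least 1000 reads, miR-124-3p lay above 10.2% of the others in leading-start share. The arms under 10 RPM rest on few reads, and their shares have wide intervals.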
